A study of Rattus norvegicus with 9 samples.

Results

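The genes described here are 10 complement components and receptors, namely C1qa, C1qb, C1qc, C1s, C2, C3, C4b, C3ar1, C5ar1 and Serping1. They were taken by gene name from a count table of 36051 genes, and all 10 were among the 16678 genes that held enough counts to be tested. RNA sequencing was done on spinal cord of rats (genotype labelled WT) with 3 libraries in each of 3 groups. SCI_ALA rats had a contusion at thoracic segment 9 made with an impactor and were given alpha-lipoic acid, a dithiol cofactor of mitochondrial dehydrogenases that is used as an antioxidant. SCI_Veh rats had the same injury with normal saline, and sham rats were operated on as the uninjured group. Tissue of all groups was taken on day 3. The labels give no strain, age, sex, drug dose or distance from the lesion, and they do not say whether the libraries of a group came from separate animals, so p-values measure the spread between these libraries, which may be technical.

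Complement is a cascade of plasma and tissue proteins that tags debris, synapses and microbes for removal and calls in phagocytes. In its classical route C1q binds a target, and the attached protease C1r activates the protease C1s. C1s cleaves C4 and C2, and the resulting convertase cleaves C3. The fragments C3a and C5a act on receptors of myeloid cells, and C1 inhibitor, the product of Serping1, blocks C1r and C1s. Within the central nervous system microglia are known as the main source of C1q.

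The libraries held 13857771 to 15736132 counts. Genes of mitochondrial origin took 6.40% to 8.08% of counts in SCI_ALA, 6.50% to 8.10% in SCI_Veh and 8.59% to 15.7% in sham, so that every sham library lay above every injured one. Leaving them and the hemoglobin genes out of the fit changed no call among the complement genes tested. Libraries also differed in how strongly long genes were represented, with a Spearman correlation across genes between gene length and the deviation from the mean of all libraries of -0.46 in SCI_ALA 3, -0.28 in SCI_ALA 2 and -0.19 in sham 2, against 0.033 to 0.34 in the other libraries. Values without SCI_ALA 3 and sham 2, a pair chosen with earlier results of these data known, are given beside the calls among the 10 genes, and each library was also left out alone. Markers of neurons, astrocytes and oligodendrocytes were present in every library.

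After injury the C1q chains and both anaphylatoxin receptors were several-fold higher. C1s, C2 and C4b did not pass the test named next in either comparison with sham, which does not show that they were unchanged. In SCI_Veh against sham, 5 of the 10 genes rose (C1qa, C1qb, C1qc, C3ar1 and C5ar1) and C3 fell, by edgeR's quasi-likelihood test with Benjamini-Hochberg adjustment over all tested genes at an adjusted p below 0.05. Of all tested genes 38% passed the same test, 19.5% higher and 18.5% lower. In SCI_ALA against sham, 6 of the 10 rose (the same 5 genes and Serping1) and none fell, where 33.1% of all genes passed, 17.3% higher and 15.8% lower. Between the injured groups, SCI_ALA against SCI_Veh, none of the 10 passed edgeR's test, where 0.12% of all genes did, 0.0779% higher and 0.042% lower. At an unadjusted p below 0.05 that comparison held 1 of the 10, Serping1, against 12.3% of all genes, and DESeq2 called none of the 10, against 2.46% of all genes. Each comparison with sham held 6 of the 10 at an unadjusted p below 0.05, against 43.7% of all genes in SCI_ALA and 47.1% in SCI_Veh, and DESeq2 called 6 of the 10 in each, against 32.5% of all genes in SCI_ALA and 35.9% in SCI_Veh. Libraries did not overlap between SCI_Veh and sham for 6 of the 10 (5 higher and C3 lower), against 49.7% of all genes (25.8% higher, 23.9% lower), and between SCI_ALA and sham for 5, all higher, against 45.7% (23.4% higher, 22.4% lower). The median log2 fold change of the 10 genes was 1.25 in SCI_Veh against sham, 0.32 in SCI_ALA against SCI_Veh and 1.4 in SCI_ALA against sham, and that of all tested genes lay within 0.01 of 0 in each. Both comparisons with sham share the sham libraries, and the SCI_Veh libraries enter 2 of the 3 comparisons.

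**Figure D1:**
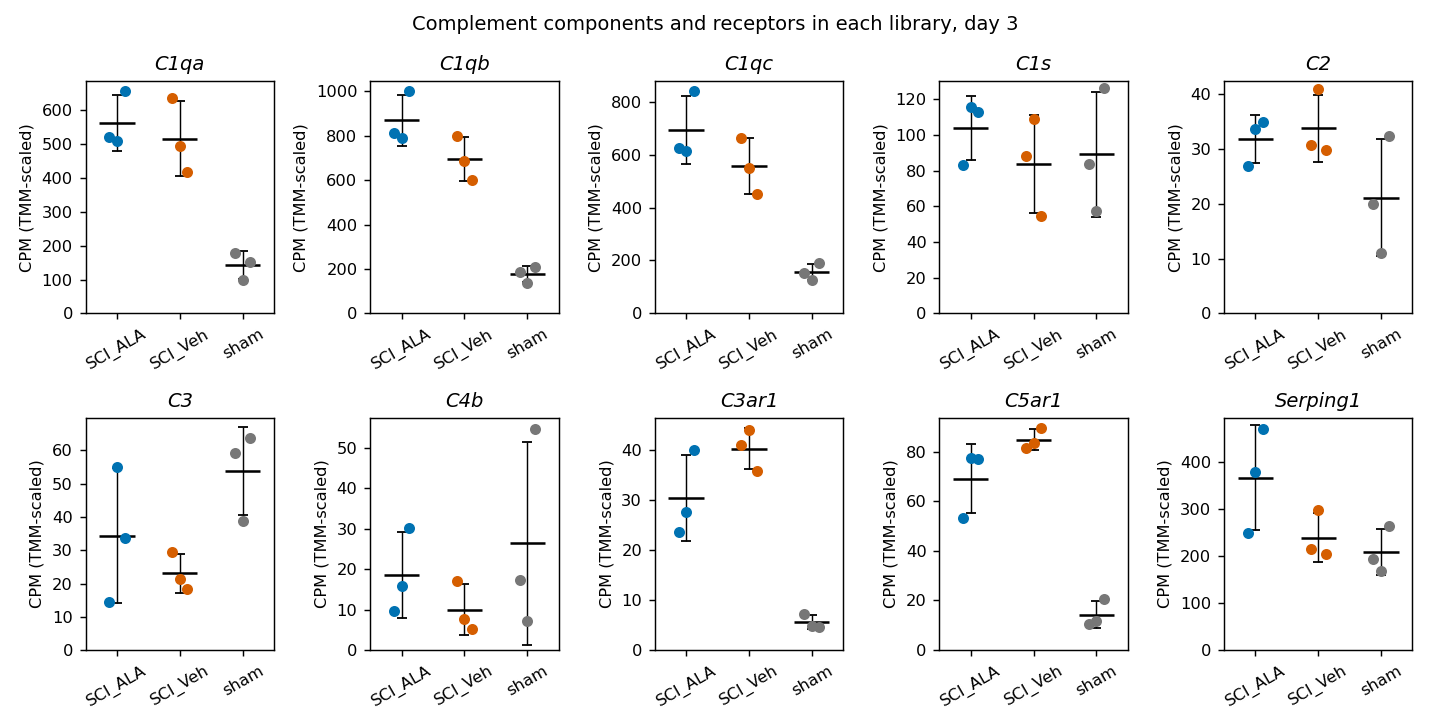
TMM-scaled CPM (y axis, from 0) of the 10 complement genes in each library (points) of SCI_ALA, SCI_Veh and sham, with the mean (bar) and SD over 3 libraries. The C1q chains, C3ar1 and C5ar1 have all 6 injured libraries above all sham libraries, whereas C1s, C2, C4b and Serping1 overlap between injured and sham groups.

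Per length, in mean FPKM (counts scaled by gene length and library size), the C1q chains were the most abundant of the 10 genes in each group, while in CPM the mean of Serping1 exceeded theirs in sham. C1qa, C1qb and C1qc encode the chains that assemble into the recognition molecule C1q, and they lie side by side on the minus strand of rat chromosome 5 in the build Rnor_6.0 (C1qb at chr5:155246447-155252003, C1qc at chr5:155255005-155258392 and C1qa at chr5:155261250-155264143). Levels are given as CPM, counts relative to library size, scaled by edgeR's TMM factors. C1qa stood at 522, 509 and 659 CPM in SCI_ALA libraries, 636, 495 and 418 CPM in SCI_Veh libraries, and 179, 97.3 and 152 CPM in sham libraries. All 6 injured libraries lay above all sham libraries, and the SCI_ALA and SCI_Veh libraries overlapped. C1qa was 3.62-fold above sham in SCI_Veh (log2 fold change 1.86, SE 0.24, edgeR adjusted p = 0.000127) and 3.95-fold above sham in SCI_ALA (log2 1.98, SE 0.24, edgeR adjusted p = 0.000114).

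C1qb stood at 814, 791 and 1004 CPM in SCI_ALA, 797, 686 and 600 CPM in SCI_Veh, and 186, 138 and 208 CPM in sham. C1qc stood at 625, 614 and 842 CPM in SCI_ALA, 664, 551 and 452 CPM in SCI_Veh, and 153, 128 and 190 CPM in sham. For both genes SCI_ALA 3 was the highest library and every sham library was below every injured one, while the 2 injured groups overlapped. C1qb stood 3.91-fold and C1qc 3.54-fold above sham in SCI_Veh (log2 1.97, SE 0.20, and log2 1.83, SE 0.21, with edgeR adjusted p of 2.42e-05 and 6.06e-05). In SCI_ALA against sham C1qb was 4.90-fold and C1qc 4.42-fold higher (log2 2.29 and 2.15, edgeR adjusted p of 1.35e-05 and 3.37e-05). With SCI_ALA 3 and sham 2 both left out, the 3 chains kept their calls, with log2 fold changes of 1.63 (C1qa), 1.80 (C1qb) and 1.68 (C1qc) in SCI_Veh against sham and 1.64, 2.02 and 1.85 for the same genes in SCI_ALA against sham. These are measures of bulk tissue, in which more cells of a type and more RNA per cell cannot be told apart.

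Summed, the 3 chains took 0.211%, 0.190% and 0.232% of all counts in SCI_ALA, 0.216%, 0.181% and 0.151% in SCI_Veh, and 0.0523%, 0.0313% and 0.0572% in sham. No sham library reached the lowest injured one. Between the injured groups the fitted differences were small and did not pass. C1qa differed by log2 0.12 in SCI_ALA against SCI_Veh (95% interval -0.38 to 0.63), C1qb by 0.32 (-0.10 to 0.74) and C1qc by 0.32 (-0.13 to 0.77), with edgeR adjusted p of 0.868, 0.521 and 0.561. The intervals leave room for a change of either sign, and a C1qa value of -0.02 was obtained once each library's trend with gene length was removed.

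Set per C1qb, C1qa ranged more widely over the libraries than C1qc. C1qc per C1qb, as a ratio of FPKM, was 0.763, 0.770 and 0.834 in SCI_ALA, 0.827, 0.798 and 0.749 in SCI_Veh, and 0.813, 0.922 and 0.905 in sham. The injured groups overlapped (two-sided exact permutation p = 1). C1qa per C1qb was 0.662, 0.665 and 0.678 in SCI_ALA, 0.825, 0.745 and 0.720 in SCI_Veh, and 0.993, 0.730 and 0.751 in sham. All SCI_ALA libraries lay below all others. The exact permutation p of 0.1 for SCI_ALA against SCI_Veh is the smallest that 3 against 3 libraries allow, and adjusted over the 24 ratio tests made here it was 0.185.

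The 250 bases before the RefSeq gene start (build GRCr8, which differs from the build of the counts) were searched on both strands for the AP-1 motif TGACTCA, the ETS core GGAAGT, the C/EBP motif TTGCNNAA, the interferon-gamma activated motif TTCNNNGAA and the E-box CACGTG. Entries were present for 5 of the 10 genes (C1qa, C1qb, C3, C4b and C3ar1). Positions are counted back from the gene start, the base before it being -1, and give the first base of a match. C1qa and C1qb are shown because both rose and both are known as genes of microglia and macrophages, where the ETS factor PU.1 acts. Capitals mark the matches, which are descriptions of letters and not sites shown to be bound. C1qa (chr5:154419934-154420183, minus strand) held GGAAGT at -107 and -79 and the interferon-gamma activated motif at -90, and C1qb (chr5:154407828-154408077, minus strand) held GGAAGT on the other strand at -61.
C1qa: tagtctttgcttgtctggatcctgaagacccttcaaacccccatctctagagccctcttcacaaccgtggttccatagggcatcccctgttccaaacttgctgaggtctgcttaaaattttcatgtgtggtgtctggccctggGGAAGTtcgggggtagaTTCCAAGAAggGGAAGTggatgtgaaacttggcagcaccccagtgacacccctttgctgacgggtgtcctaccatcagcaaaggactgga
C1qb: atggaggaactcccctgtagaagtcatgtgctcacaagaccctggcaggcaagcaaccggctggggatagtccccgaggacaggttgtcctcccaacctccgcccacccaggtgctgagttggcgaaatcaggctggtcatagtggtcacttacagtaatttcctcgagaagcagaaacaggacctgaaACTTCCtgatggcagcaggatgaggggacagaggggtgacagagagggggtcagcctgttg
Of 33469 rat promoters of this length, 19.2% held GGAAGT and 7.67% held TTCNNNGAA.

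C1s, the protease of the C1 complex that cleaves C4 and C2, lies at chr4:157143592-157155609 and did not pass in any comparison. It stood at 83.3, 115 and 113 CPM in SCI_ALA, 88.1, 109 and 54.4 CPM in SCI_Veh, and 83.6, 57.2 and 127 CPM in sham. The groups overlapped throughout, with a sham library highest and an SCI_Veh library lowest. In SCI_Veh against sham the log2 fold change was -0.09 (95% interval -0.74 to 0.56, edgeR adjusted p = 0.839). C1r, the protease that activates C1s, likewise did not pass, with a mean of 131 ± 14 CPM in SCI_ALA, 139 ± 40.6 CPM in SCI_Veh and 118 ± 38.6 CPM in sham (SD, n = 3 each).

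Per length, the summed C1q chains exceeded C1s by a factor of 66.0, 46.5 and 62.1 in SCI_ALA, 66.9, 44.7 and 75.9 in SCI_Veh, and 17.4, 17.8 and 12.2 in sham. Every injured library was above every sham library in this ratio of FPKM, and the injured groups overlapped. C1r per C1s was 1.72, 1.37 and 1.13 in SCI_ALA, 1.79, 1.76 and 1.92 in SCI_Veh, and 1.65, 1.44 and 1.30 in sham. SCI_Veh libraries were the highest in this second ratio, with an exact permutation p of 0.1 against either other group (0.185 adjusted over the 24 ratio tests).

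C2 encodes the protease of the classical C3 convertase. It stood at 26.8, 33.5 and 35.0 CPM in SCI_ALA, 30.6, 40.8 and 29.7 CPM in SCI_Veh, and 20.0, 11 and 32.3 CPM in sham. The sham libraries were spread widely and sham 3 lay within the range of the injured ones. C2 did not pass in any comparison, with log2 fold changes of 0.67 in SCI_Veh against sham (95% interval -0.0016 to 1.35, edgeR adjusted p = 0.107), -0.09 in SCI_ALA against SCI_Veh and 0.59 in SCI_ALA against sham (edgeR adjusted p = 0.166). Without sham 3 it passed in SCI_Veh against sham (log2 1.13, edgeR adjusted p = 0.00907) and in SCI_ALA against sham (log2 1.04, edgeR adjusted p = 0.0158).

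The count of C2 carries a limit of annotation. In Rnor_6.0 the gene spans chr20:4542340-4561152, and 99.5% of it lies inside the longer of 2 models named Cfb, the gene of complement factor B, on the same strand (chr20:4536203-4561066). The shorter Cfb model (chr20:4536212-4542073, same strand) also lies inside the longer one. Both Cfb models stood at 0 counts in all 9 libraries. How reads of the shared region were assigned is not given in the sources used here, so the split between C2 and factor B is uncertain.

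C3, the central component that every route of complement cleaves, went against the C1q chains. It lies at chr9:9721105-9747167. C3 stood at 14.5, 55 and 33.8 CPM in SCI_ALA, 29.6, 21.3 and 18.3 CPM in SCI_Veh, and 59.1, 38.8 and 63.8 CPM in sham. All SCI_Veh libraries lay below all sham libraries, whereas the SCI_ALA libraries held both the lowest value of all and one within the sham range. C3 fell in SCI_Veh to a level 2.34-fold lower than in sham (log2 -1.22, SE 0.41, edgeR adjusted p = 0.0383).

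This call was not stable. It was lost under 11 of 24 alternatives, with edgeR adjusted p-values of 0.122 without SCI_Veh 2, 0.116 without SCI_Veh 3, 0.101 without sham 1, 0.0521 without sham 2, 0.113 without sham 3 and 0.0576 without SCI_ALA 3, while the log2 fold change stayed between -1.43 and -1.07. With SCI_ALA 3 and sham 2 both left out the edgeR adjusted p was 0.0828. In SCI_ALA against sham C3 did not pass (log2 -0.65, 95% interval -1.55 to 0.25, edgeR adjusted p = 0.246), though it did without SCI_ALA 2 (log2 -1.16, edgeR adjusted p = 0.0412). In SCI_ALA against SCI_Veh its log2 fold change was 0.58 (95% interval -0.33 to 1.48, edgeR adjusted p = 0.602).

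Astrocytes are known to make C3 in the injured central nervous system, and most of their markers, though not Gfap, were lower after injury. Of 8 astrocyte markers 6 fell in SCI_Veh against sham and 6 in SCI_ALA against sham. Gfap and Sox9 passed in neither comparison. Gfap averaged 8051 CPM in SCI_ALA, 6200 CPM in SCI_Veh and 5933 CPM in sham, so its mean did not fall. The summed levels were 10175 to 11156 CPM in SCI_ALA, 6749 to 9469 CPM in SCI_Veh and 10469 to 16222 CPM in sham. In this sum SCI_ALA overlapped with sham. The part of these markers in the C3 values was not tested. Plasma proteins of the liver, the main source of circulating C3, summed to 3.30 to 4.30 CPM in SCI_ALA, 1.93 to 4.34 CPM in SCI_Veh and 1.64 to 7.28 CPM in sham. Of the 3 with enough counts to be tested, only Apoh passed, higher in both comparisons with sham at very low levels. Its means were 0.80 CPM in SCI_ALA, 0.95 CPM in SCI_Veh and 0.0437 CPM in sham. The C3 promoter (chr9:2201340-2201589, minus strand, GRCr8) is shown because C3 is known as a target of C/EBP factors, and it held TTGCNNAA at -104, as did 9.22% of all rat promoters.
C3: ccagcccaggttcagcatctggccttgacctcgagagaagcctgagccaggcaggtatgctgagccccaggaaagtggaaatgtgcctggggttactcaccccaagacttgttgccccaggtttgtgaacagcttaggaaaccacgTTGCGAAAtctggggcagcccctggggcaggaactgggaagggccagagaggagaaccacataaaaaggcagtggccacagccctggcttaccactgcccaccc

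C4b encodes a form of C4, the other part of the classical C3 convertase. It stood at 9.65, 15.8 and 30.2 CPM in SCI_ALA, 17.1, 7.74 and 5.20 CPM in SCI_Veh, and 17.2, 7.2 and 54.7 CPM in sham. Libraries of each group varied several-fold among themselves and all groups overlapped. C4b did not pass in any comparison, with log2 fold changes of -1.40 in SCI_Veh against sham (95% interval -3.26 to 0.46, edgeR adjusted p = 0.21), 0.89 in SCI_ALA against SCI_Veh (-0.96 to 2.74, edgeR adjusted p = 0.696) and -0.51 in SCI_ALA against sham (-2.33 to 1.30). The value in SCI_Veh against sham was -0.28 without sham 3 and -2.01 without SCI_Veh 1, that in SCI_ALA against sham was 0.60 without sham 3 and -1.50 without SCI_ALA 3 and sham 2, and that in SCI_ALA against SCI_Veh was 1.51 without SCI_Veh 1.

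C4 is annotated more than once in the rat, and the copies differed. C4b (chr20:4302344-4316715) lies almost entirely, 99.98% of its length, within LOC103689965, named as complement C4-like in the file (chr20:4302347-4508214, same strand), and C4a lies apart at chr20:2651599-2678141. C4a stood at 0.402, 0.347 and 2.88 CPM in SCI_ALA, 18, 5.6 and 3.78 CPM in SCI_Veh, and 2.43, 2.45 and 2.93 CPM in sham. SCI_Veh libraries were the highest without overlap, and the SCI_ALA libraries ran from the lowest value of all into the sham range. C4a missed the threshold in SCI_ALA against SCI_Veh (log2 -2.91, SE 0.80, edgeR adjusted p = 0.196) and in SCI_Veh against sham (log2 1.81, edgeR adjusted p = 0.0813). DESeq2 called it in both.

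As a share of the 3 C4 genes, C4a made up 1.26%, 0.736% and 5.05% in SCI_ALA, 23.9%, 12.7% and 13.6% in SCI_Veh, and 2.72%, 11% and 2.5% in sham. The SCI_Veh libraries were above all others (exact permutation p = 0.1 against either group, 0.185 adjusted over the 24 ratio tests). Summed over the 3 genes, C4 stood at 32.0, 47.1 and 57.1 CPM in SCI_ALA, 75.5, 44.0 and 27.7 CPM in SCI_Veh, and 89.0, 22.3 and 117 CPM in sham, with all groups overlapping. With the 3 genes summed before the fit the log2 fold change in SCI_ALA against SCI_Veh was -0.11, opposite in sign to that of C4b alone. Reads of similar copies can be split by the counting, so the values of the single copies are uncertain. How reads shared by C4b and LOC103689965 were counted is not given in the sources used here, so the sum may be incomplete too. The promoters of C4b (chr20:4201729-4201978) and C4a (chr20:4010107-4010356, both plus strand, GRCr8) are shown to compare the copies. They shared 229 of 241 aligned bases, or 95%, and both held the E-box CACGTG, at -95 in C4b and -90 in C4a, as did 5.59% of rat promoters.
C4b: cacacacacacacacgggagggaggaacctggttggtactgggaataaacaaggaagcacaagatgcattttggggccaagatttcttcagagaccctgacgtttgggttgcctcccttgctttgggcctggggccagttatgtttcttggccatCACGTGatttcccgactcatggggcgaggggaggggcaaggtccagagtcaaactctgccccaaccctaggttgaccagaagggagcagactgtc
C4a: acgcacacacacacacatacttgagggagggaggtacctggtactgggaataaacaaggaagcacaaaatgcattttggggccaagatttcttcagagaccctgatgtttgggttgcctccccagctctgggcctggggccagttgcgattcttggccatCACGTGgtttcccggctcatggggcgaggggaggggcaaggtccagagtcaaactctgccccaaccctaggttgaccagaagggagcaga

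**Figure D2:**
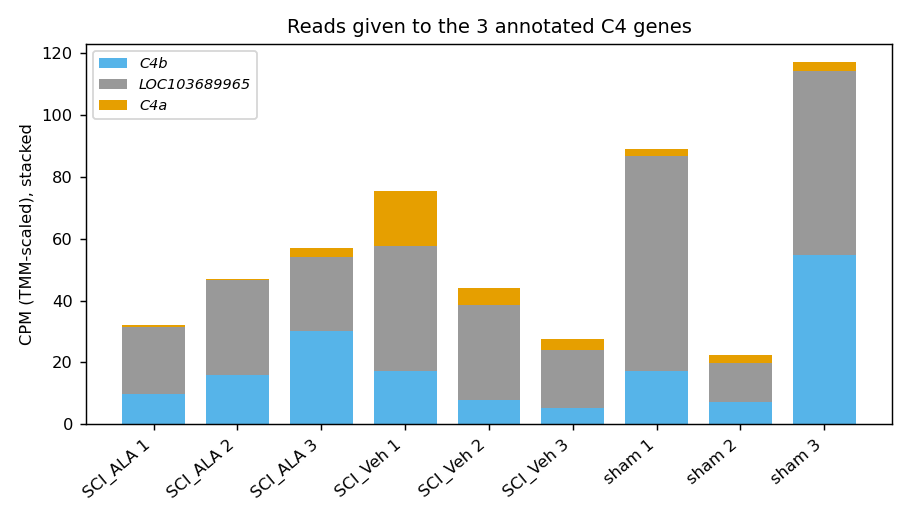
Stacked bars of TMM-scaled CPM (y axis, from 0) for C4b, LOC103689965 and C4a in each library of SCI_ALA, SCI_Veh and sham. C4a is a visible part of the SCI_Veh bars (12.7% to 23.9% of the sum) and a thin one in SCI_ALA (0.736% to 5.05%), and the sums of the groups overlap.

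In SCI_Veh against sham the anaphylatoxin receptors had the largest rises of the 10 genes, and in SCI_ALA against sham C1qb (log2 2.29) came between C3ar1 (2.44) and C5ar1 (2.28). C3ar1, the receptor of C3a, lies at chr4:155684029-155690869. It stood at 23.6, 27.7 and 39.97 CPM in SCI_ALA, 41.1, 44.0 and 35.8 CPM in SCI_Veh, and 7.28, 4.91 and 4.60 CPM in sham. Every injured library was above every sham library, and SCI_ALA 3 lay within the SCI_Veh range while the other SCI_ALA libraries lay below it. C3ar1 was 7.18-fold above sham in SCI_Veh (log2 2.84, SE 0.25, edgeR adjusted p = 1.01e-05) and 5.42-fold above sham in SCI_ALA (log2 2.44, SE 0.25, edgeR adjusted p = 3.55e-05).

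C5ar1, the receptor of C5a that draws neutrophils and macrophages, lies at chr1:78186776-78195328. It stood at 53.3, 77.2 and 76.9 CPM in SCI_ALA, 81.3, 83.6 and 89.6 CPM in SCI_Veh, and 10.7, 11.6 and 20.5 CPM in sham. All SCI_ALA libraries lay below all SCI_Veh libraries and above all sham libraries, so that C5ar1 was the only one of the 10 genes whose injured groups did not overlap, where 23.8% of all tested genes did not overlap, 11.6% higher and 12.2% lower. C5ar1 was 5.94-fold above sham in SCI_Veh (log2 2.57, SE 0.25, edgeR adjusted p = 1.89e-05) and 4.84-fold above sham in SCI_ALA (log2 2.28, SE 0.25, edgeR adjusted p = 5.23e-05).

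Both receptors kept their calls with SCI_ALA 3 and sham 2 left out, at log2 2.75 (C3ar1) and 2.43 (C5ar1) in SCI_Veh against sham and 2.11 (C3ar1) and 2.06 (C5ar1) in SCI_ALA against sham. Neither receptor passed in SCI_ALA against SCI_Veh. The log2 fold change was -0.41 for C3ar1 (95% interval -0.90 to 0.09, edgeR adjusted p = 0.496) and -0.29 for C5ar1 (-0.80 to 0.21, edgeR adjusted p = 0.639), each below 0 under all alternatives tried. C5ar1 per C3ar1, as a ratio of FPKM, was 2.35, 2.89 and 1.996 in SCI_ALA, 2.05, 1.97 and 2.59 in SCI_Veh, and 1.52, 2.44 and 4.63 in sham, with all groups overlapping. Per length, C3ar1 exceeded its ligand's gene C3 by a factor of 4.18, 1.29 and 3.03 in SCI_ALA and 3.56, 5.29 and 5.02 in SCI_Veh, and was below C3 at 0.316, 0.324 and 0.185 in sham. The C3ar1 promoter (chr4:157756531-157756780, minus strand, GRCr8) is shown because this gene had the largest fold of the 10. It held the AP-1 motif TGACTCA at -72, as did 4.05% of rat promoters.
C3ar1: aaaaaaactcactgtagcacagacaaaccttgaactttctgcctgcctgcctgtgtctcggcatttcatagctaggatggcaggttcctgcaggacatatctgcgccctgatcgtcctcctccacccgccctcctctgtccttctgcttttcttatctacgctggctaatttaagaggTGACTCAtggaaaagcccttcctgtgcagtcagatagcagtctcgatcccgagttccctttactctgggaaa

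Serping1 encodes C1 inhibitor and lies at chr3:72161189-72171078. It stood at 249, 380 and 471 CPM in SCI_ALA, 215, 298 and 204 CPM in SCI_Veh, and 195, 169 and 263 CPM in sham. SCI_ALA 2 and SCI_ALA 3 were above all other libraries, while SCI_ALA 1 lay within the range of the other groups. Serping1 was 1.76-fold above sham in SCI_ALA (log2 0.81, SE 0.25, edgeR adjusted p = 0.0265). It did not pass in SCI_Veh against sham (log2 0.20, 95% interval -0.35 to 0.74, edgeR adjusted p = 0.569).

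Serping1 in SCI_ALA against SCI_Veh had a log2 fold change of 0.62 (SE 0.25, unadjusted p = 0.0297, edgeR adjusted p = 0.353), the only one of the 10 with an unadjusted p below 0.05. The call against sham was lost under 7 of 24 alternatives, with edgeR adjusted p-values of 0.0738 without SCI_ALA 2, 0.117 without SCI_ALA 3, 0.0783 without sham 1 and 0.0841 without sham 2. With SCI_ALA 3 and sham 2 both left out the log2 fold change was 0.46 (edgeR adjusted p = 0.237). Serping1 per C1s, the inhibitor set against its target per length, was 4.78, 5.25 and 6.65 in SCI_ALA, 3.90, 4.38 and 5.99 in SCI_Veh, and 3.72, 4.71 and 3.32 in sham. SCI_ALA libraries were above all sham libraries (exact permutation p = 0.1, 0.185 adjusted over the 24 ratio tests) and overlapped with SCI_Veh.

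**Figure D3:**
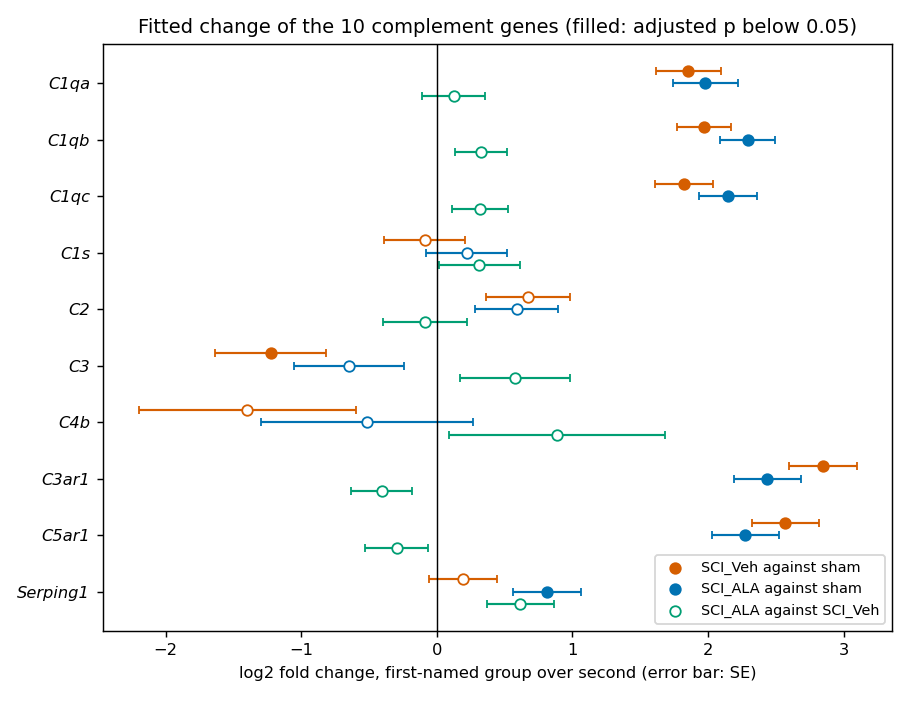
Fitted log2 fold change (x axis, first-named group over the second, with SE) of the 10 complement genes in SCI_Veh against sham, SCI_ALA against sham and SCI_ALA against SCI_Veh. Filled points passed edgeR's test at an adjusted p below 0.05. The C1q chains and the receptors lie between 1.83 and 2.84 in both comparisons with sham, and no point of SCI_ALA against SCI_Veh is filled.

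The order of the 10 genes per length (mean FPKM) began with C1qb, C1qc, C1qa and Serping1 in each group. C1qb averaged 793 FPKM in SCI_ALA, 630 FPKM in SCI_Veh and 163 FPKM in sham. In each group the ranges of C1qb and C1qc overlapped, as did those of C1qc and C1qa, and C1qa overlapped with Serping1 in sham only. The rest of the order changed after injury. In SCI_ALA C5ar1 came next (35.0 FPKM, overlapping with C1s at 34), and then C3ar1 (14.9), C2 (12), C3 (6.55) and C4b (3.45), with each neighbour overlapping the next from C3ar1 down. In SCI_Veh the same genes stood at 42.8 FPKM for C5ar1, 27.3 for C1s, 19.6 for C3ar1, 12.7 for C2, 4.37 for C3 and 1.85 for C4b, and C1s and C3ar1 were the only neighbours among them that overlapped. In sham C1s came after Serping1 (29.4 FPKM), and C3 (10.3), C2 (8.05), C5ar1 (7.26), C4b (4.94) and C3ar1 (2.74) followed, with every neighbour from C3 down overlapping the next.

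Like the C1q chains and the receptors, most markers of microglia and macrophages rose in both comparisons with sham. Of 12 such markers 11 rose in SCI_Veh against sham, and in SCI_ALA against sham 9 rose and 1, the microglial gene Tmem119, fell. Their summed level was 3787 to 5160 CPM in SCI_ALA, 5677 to 6641 CPM in SCI_Veh and 631 to 712 CPM in sham. None of the 12 passed in SCI_ALA against SCI_Veh by edgeR's test, where their median log2 fold change was -0.59. There C1qa, C1qb and C1qc differed by log2 0.12, 0.32 and 0.32, and C3ar1 and C5ar1 by -0.41 and -0.29, none of which passed. The part of these markers in the complement values was not tested. Of the other lists, 8 of 8 neuronal and 5 of 6 oligodendrocyte markers fell in both comparisons with sham. Neutrophil markers summed to 131 to 544 CPM in SCI_ALA, 85.6 to 219 CPM in SCI_Veh and 75.5 to 660 CPM in sham. Of the 7 neutrophil markers only Csf3r passed against sham, higher by 4.27-fold in SCI_Veh and 3.21-fold in SCI_ALA (edgeR adjusted p of 0.000249 and 0.00124). T and B cell markers summed to 8.54 to 10.9 CPM in SCI_ALA, 0.837 to 7.63 CPM in SCI_Veh and 2.36 to 3.72 CPM in sham, and of the 3 that were tested all rose in SCI_ALA against sham and none passed in the other comparisons. The part of these markers was not tested either. The endothelial gene Cldn5 was at 0 in every library.

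Set against most single markers of these cells, C1qb was higher in every SCI_ALA library than in every SCI_Veh library. C1qa and C1qc were not set against these markers. C1qa differed less between the injured groups (log2 0.12, against 0.32 for C1qb and for C1qc). C1qb per Csf1r, the receptor that keeps microglia and macrophages alive, was 10.7, 10.7 and 10.6 as a ratio of FPKM in SCI_ALA, 6.02, 5.04 and 5.34 in SCI_Veh, and 3.41, 3.95 and 4.39 in sham. The groups were ordered without overlap (exact permutation p = 0.1 for each pair, 0.185 adjusted over the 24 ratio tests). C1qb per Cd68, a lysosomal glycoprotein of phagocytes, was 5.36, 4.53 and 5.42 in SCI_ALA, 3.37, 2.60 and 2.71 in SCI_Veh, and 9.96, 11.6 and 7.59 in sham. Here too the groups did not overlap, but sham was the highest.

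Over the 12 markers, the CPM ratio of C1qb to the marker was higher in all SCI_ALA libraries than in all SCI_Veh libraries for 10, and overlapped for Aif1 and Tyrobp. The fitted log2 difference was 0.29 to 1.31 over the 12, and 0.19 to 1.24 once each library's trend with gene length was removed. The 12 ratios share C1qb and the same libraries and are not independent. The share of all tested genes for which such a ratio separated the groups was not counted. The pattern is therefore not shown to be particular to these markers. In SCI_Veh against sham the direction depended on the marker, with C1qb higher without overlap relative to 5 markers and lower relative to 4. The extremes of that comparison were Tmem119 (log2 difference 1.90) and Gpnmb, a gene of lipid-laden phagocytes (-4.49).

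**Figure D4:**
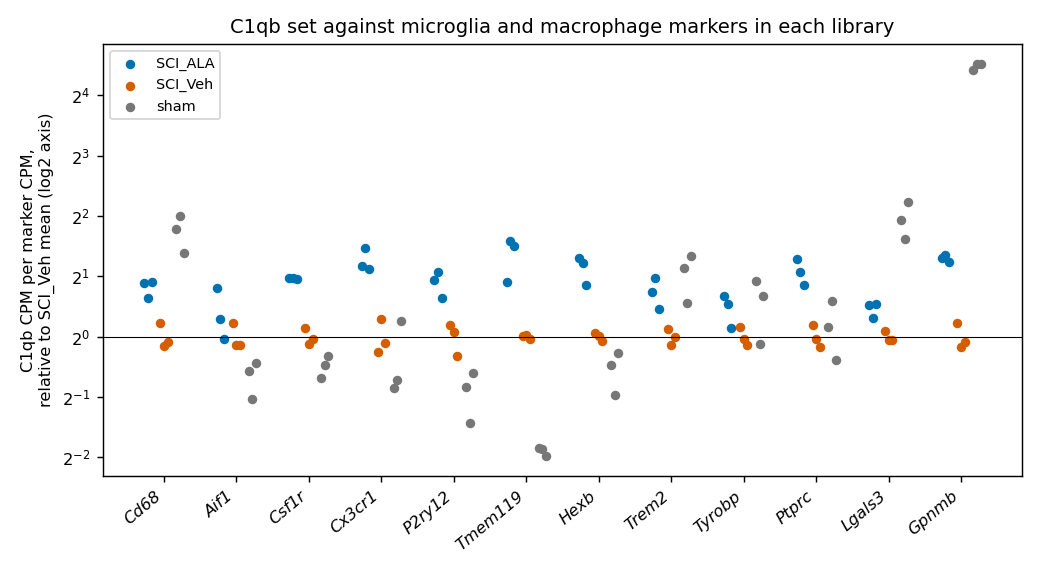
C1qb CPM divided by the CPM of each of 12 microglia and macrophage markers (x axis), relative to the SCI_Veh mean (y axis, log2 scale), with a point per library of SCI_ALA, SCI_Veh and sham. SCI_ALA points lie above all SCI_Veh points for 10 markers, and sham points lie highest for Gpnmb, Lgals3 and Cd68.

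Other genes of the complement system were taken from a list of 41. Of these 38 were in the table and 29 were tested, while Mbl2, Itgam and Csmd3 were not analysed here. C8a, Mbl1 and Cfb had 0 counts in every library, where the value of Cfb carries the limit of overlapping models given with C2. Too few counts for edgeR's test were held by C5, Cr2, C4bpa, C4bpb, C8b and Colec10. Of these Cr2, complement receptor 2, had 6, 2 and 18 counts in SCI_ALA, 9, 2 and 13 counts in SCI_Veh and 0 counts in every sham library, and DESeq2 called it in both comparisons with sham. In SCI_Veh against sham 9 of the 29 rose and 6 fell, where 19.5% of all tested genes rose and 18.5% fell. Against sham, SCI_ALA had 11 of the 29 higher and 5 lower by the same test, where 17.3% of all tested genes rose and 15.8% fell. None passed edgeR's test in SCI_ALA against SCI_Veh, against 0.12% of all genes, while 6 had an unadjusted p below 0.05 (C4a, Cfd, C5ar2, Itgax, Vsig4 and Cd55), against 12.3%, and DESeq2 called 3 (C4a, Cfd and Itgax), against 2.46%. The median log2 fold change of the 29 was 0.38 in SCI_Veh against sham, 0.12 in SCI_ALA against SCI_Veh and 0.56 in SCI_ALA against sham.

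All 5 other receptor genes that edgeR tested rose in both comparisons with sham. Itgax, the alpha chain of complement receptor 4, stood at 15.5, 21.0 and 13.4 CPM in SCI_ALA, 31.5, 36.4 and 35.2 CPM in SCI_Veh, and 3.08, 3.17 and 3.27 CPM in sham. The groups were separate, with SCI_ALA between the others. Itgax was 10.8-fold above sham in SCI_Veh and 5.23-fold above sham in SCI_ALA (log2 3.44 and 2.39, edgeR adjusted p of 1.46e-06 and 1.51e-05). Set against SCI_Veh, the SCI_ALA level was 2.07-fold lower without passing edgeR's test (log2 -1.05, SE 0.19, edgeR adjusted p = 0.0917), and it passed under 4 alternatives, with adjusted p between 0.00115 and 0.049.

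Vsig4, a macrophage receptor for C3b, had the opposite order of the injured groups. It stood at 27.9, 57.3 and 42.4 CPM in SCI_ALA, 13.7, 8.61 and 7.42 CPM in SCI_Veh, and 0, 3.24 and 1.999 CPM in sham. The groups were separate, with SCI_ALA highest. Vsig4 was 24.8-fold above sham in SCI_ALA (log2 4.63, SE 0.84, edgeR adjusted p = 0.00382) and 5.78-fold above sham in SCI_Veh (log2 2.53, SE 0.81, edgeR adjusted p = 0.0384), the second lost under 11 alternatives, with edgeR adjusted p of 0.053 to 0.101. These log2 values moved with the sham libraries used, to 4.05 in SCI_ALA and 1.95 in SCI_Veh without sham 1, and to 5.402 in SCI_ALA and 3.29 in SCI_Veh without sham 2. In SCI_ALA against SCI_Veh its log2 fold change was 2.10 (SE 0.72, edgeR adjusted p = 0.311). Itgb2, the shared beta chain of complement receptors 3 and 4, averaged 83.1 ± 18.2 CPM in SCI_ALA, 119 ± 8.97 CPM in SCI_Veh and 15.6 ± 6.87 CPM in sham (SD, n = 3 each). C5ar2, a second receptor of C5a, averaged 13.3 ± 0.327 CPM in SCI_ALA, 9.20 ± 2.16 CPM in SCI_Veh and 5.15 ± 0.595 CPM in sham. Cd93, a receptor of phagocytes and endothelium, averaged 11.1 ± 1.08 CPM in SCI_ALA, 13.9 ± 1.95 CPM in SCI_Veh and 3.69 ± 2.97 CPM in sham.

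Of the genes that start the lectin route, Masp1, a protease, rose in SCI_Veh against sham (2.34-fold, edgeR adjusted p = 0.0154) and the collectin gene Colec11 fell (log2 -2.71, edgeR adjusted p = 0.0105) from low counts, at most 27 in a library. Of the alternative route, Cfp, properdin, rose in both comparisons with sham, by 2.62-fold in SCI_Veh and 3.18-fold in SCI_ALA (edgeR adjusted p of 0.00228 and 0.000906). Cfd, factor D, stood at 48.6, 50.5 and 90.9 CPM in SCI_ALA, 29.2, 34.3 and 30.2 CPM in SCI_Veh, and 14.03, 32.4 and 25.6 CPM in sham. All SCI_ALA libraries lay above all others, and the SCI_Veh and sham libraries overlapped. Cfd rose in SCI_ALA against sham (2.64-fold, edgeR adjusted p = 0.00467) and did not pass edgeR's test in SCI_ALA against SCI_Veh (log2 1.02, SE 0.30, edgeR adjusted p = 0.215).

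Among the terminal components, which form the membrane attack complex, C6 rose in both comparisons with sham. Its mean was 62.0 ± 8.98 CPM in SCI_ALA, 39.7 ± 15.2 CPM in SCI_Veh and 18.1 ± 9.92 CPM in sham (SD, n = 3 each), and its call in SCI_Veh was lost under 7 alternatives. In SCI_ALA against sham C8g rose 2.08-fold (edgeR adjusted p = 0.0362) and C9 fell (log2 -2.63, edgeR adjusted p = 0.0275), the last from at most 11 counts in a library, and each of these calls was lost under 8 alternatives.

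Regulators moved in both directions. Cr1l, known in rodents as the membrane regulator Crry, rose in both comparisons with sham, with log2 fold changes of 1.0 in SCI_ALA and 1.01 in SCI_Veh. Cfi, the protease factor I, rose in SCI_ALA against sham (log2 2.62, edgeR adjusted p = 0.018) from at most 45 counts in a library and missed the threshold in SCI_Veh against sham (log2 1.97, edgeR adjusted p = 0.054).

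Clusterin, encoded by Clu and known to bind terminal complexes, fell in both. It averaged 800.4 ± 132 CPM in SCI_ALA, 736 ± 131 CPM in SCI_Veh and 1492 ± 24.6 CPM in sham (SD, n = 3 each). Vtn, vitronectin, fell by 2.09 on the log2 scale in SCI_ALA and by 1.58 in SCI_Veh, and Susd4, a membrane inhibitor found in brain, fell by 1.71 in SCI_ALA and by 1.39 in SCI_Veh (edgeR adjusted p between 0.000137 and 0.000735). Csmd1, a neuronal inhibitor of complement, fell in both comparisons from at most 59 counts in a library, and Cd59, the inhibitor of the membrane attack complex, fell in SCI_Veh against sham (log2 -0.63, edgeR adjusted p = 0.018). In SCI_ALA against sham the Cd59 log2 fold change was -0.30 (edgeR adjusted p = 0.225), and in SCI_ALA against SCI_Veh it was 0.33 (edgeR adjusted p = 0.499). Neurons and astrocytes are known to express several of these genes, and 8 of 8 neuronal and 6 of 8 astrocyte markers fell in the same comparisons, the part of which was not tested.

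Several of these calls were lost when 1 library was left out. In SCI_Veh against sham Masp1 was lost without SCI_Veh 3 or sham 2 (edgeR adjusted p of 0.0551 and 0.0833), C6 without SCI_Veh 2, sham 1 or sham 2 (0.0858 to 0.137), C5ar2 without SCI_Veh 1 or SCI_Veh 2 (0.0508 and 0.0747), Cd93 without SCI_Veh 2 or sham 1 (0.0636 and 0.0554), and Cd59 without SCI_Veh 1 or SCI_Veh 2 (0.0775 and 0.0598). Csmd1 was lost there without any 1 of the SCI_Veh libraries, sham 1 or sham 3 (edgeR adjusted p of 0.0567 to 0.0994). In SCI_ALA against sham Cfi was lost without SCI_ALA 2 or SCI_ALA 3 (edgeR adjusted p of 0.0568 and 0.0536), Cd93 under 11 alternatives (0.0609 to 0.11) and Csmd1 under 13 (0.0504 to 0.156). Itgax, Itgb2, Cfp, Cr1l, Vtn and Susd4 kept their calls against sham under all 24 alternatives. Without sham 3 the log2 fold change of Cd93 was 2.24 in SCI_ALA, where it was 1.58 with all libraries, and 2.56 in SCI_Veh, where it was 1.89. That of Csmd1 in SCI_ALA was -2.98 without SCI_ALA 1, where it was -1.85 with all libraries, and that of Cfi in SCI_ALA was 1.98 without SCI_ALA 3 and sham 2.

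**Figure D5:**
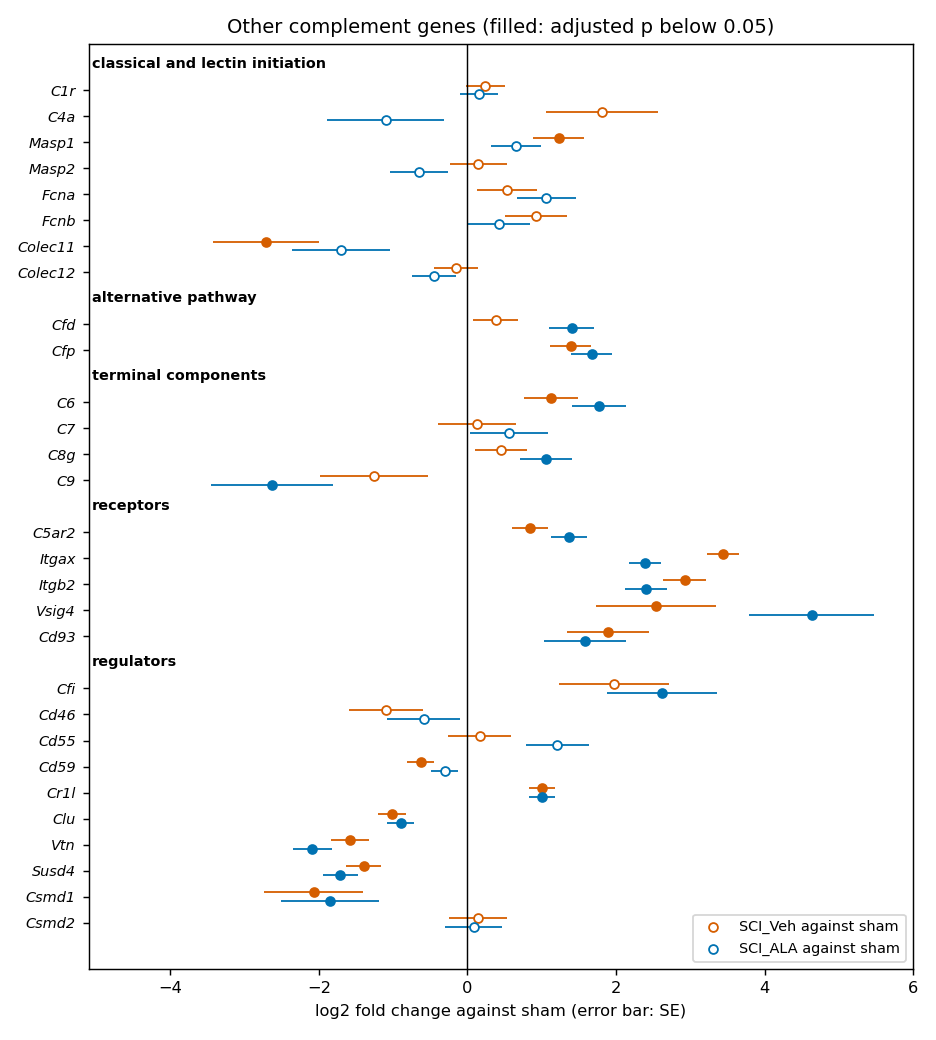
Fitted log2 fold change against sham (x axis, with SE) of the 29 other tested complement genes, grouped by role, in SCI_Veh and SCI_ALA. Filled points passed edgeR's test at an adjusted p below 0.05. All 5 receptor genes are filled to the right of 0 in both groups, and the regulators lie on both sides, with Cfi, Cr1l, Cd55 and Csmd2 to the right in both groups and Clu, Vtn, Susd4, Csmd1, Cd59 and Cd46 to the left, of which Cd55, Csmd2 and Cd46 are open in both groups, Cfi is open in SCI_Veh and Cd59 is open in SCI_ALA.

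Genes with profiles most like those of 4 of the complement genes were ranked by the root mean square difference of centred log2 CPM over the 9 libraries, among 9963 tested genes with a mean of at least 10 CPM. Nearest to C1qa were P2rx4 (a purinergic receptor, difference 0.17), Cotl1 (0.20) and Glipr2 (0.21), and nearest to C3ar1 were Cd33 (a sialic acid receptor of myeloid cells, 0.13), Cdca8 (0.18) and Ctsb (cathepsin B, 0.20). Those nearest to C3 lay farther away, namely LOC108348078 (0.37), Vcam1 (an adhesion molecule, 0.38) and Reck (0.40). The nearest to C4b were farther still, with Hbb-b1, a hemoglobin gene, at 0.49, Mmp8, a collagenase of neutrophils, at 0.65, and Smpd3 at 0.68.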

How the data were processed

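The authors deposited a table of raw read counts per gene, whole numbers, and FPKM values of the same genes beside gene lengths and positions. The submitters' processing notes name HISAT2 2.0.5, featureCounts 1.5.0-p3, DESeq2 1.20.0 and the build Rnor_6.0. Libraries were made with a NEBNext Ultra RNA kit, per the labels' protocols; the strand setting of the counting is not given in the sources used here. Each deposited FPKM is a count scaled by gene length and library size, and it served for ratios and orders between genes. The library size behind it was not the plain count total, but 0.872 (sham 2) to 1.09 (SCI_ALA 1) times that total.

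Counts were fitted with edgeR 4.0.16 in R 4.3.3 (filterByExpr with a minimum count of 10 and a minimum total of 15, TMM factors of 0.862 to 1.08, robust quasi-likelihood fit of group means over all 9 libraries, Benjamini-Hochberg adjustment over 16678 genes, threshold 0.05). SE is the log2 fold change divided by the square root of F, and 95% intervals use the moderated degrees of freedom. Scripts were tested on simulated data. Two-sided exact permutation tests served for ratios. Alternatives used DESeq2 1.42.0, limma 3.58.1 on log2(FPKM + 1) or log2(FPKM + 0.1), other scalings and filters, a fold minimum, a replicate block and each library left out. A sum of the C4 genes, and offsets that take out a loess trend on gene length (span 0.5) per library, were added after seeing the data. Named genes were all 10 members of the set, listed pathway genes that passed or could not be tested, and the 3 nearest profiles of C1qa, C3, C4b and C3ar1; other genes in the text were named after their values were seen. The members and lists were chosen with earlier results of these data known, and an item left out of the pathway list is not reported here. No molecular identifiers are named, so counts may include PCR copies of a molecule. Python 3.11.15 with matplotlib 3.10.9 drew the figures. Replicate numbers were checked for pairing by the correlations of same-numbered libraries given below, which cannot exclude it with so few libraries.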

Additional observations from a re-analysis of the deposited data

How the results depend on the processing

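C1qa, C1qb, C1qc, C3ar1 and C5ar1 passed in both comparisons with sham under all 24 alternatives, with log2 fold changes of 1.63 to 3.10 in SCI_Veh against sham and 1.64 to 2.70 in SCI_ALA against sham. None of the 10 genes passed in SCI_ALA against SCI_Veh under any of them. The number of the 10 that passed was 5 to 6 in SCI_Veh against sham and 5 to 7 in SCI_ALA against sham, and it was 10 to 17 and 12 to 19 of the 38 other complement genes in the table, highest with DESeq2. Over all genes a minimum log2 fold change of 1 left 3801 calls in SCI_Veh against sham and 3257 in SCI_ALA against sham. Other scalings shifted the all-gene median log2 fold change by at most 0.09.

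For SCI_ALA against SCI_Veh the 20 calls over all genes became 1 with library totals only, 45 with no count filter, 1 without robust estimates, 161 with only the 2 groups compared, 386 with DESeq2, 3 with limma on log2(FPKM + 1), 0 with log2(FPKM + 0.1), 1 with log2(FPKM + 1) and all genes, and 0 to 86 with 1 library left out. Of the other complement genes 1 passed with no count filter, 2 with only the 2 groups compared, 3 with DESeq2 and 0 to 1 with 1 library left out. The replicate numbers are not known to pair the libraries, and same-numbered libraries deviated together by correlations of -0.0855 to 0.18. With a replicate block the calls over all genes were 6216 in SCI_Veh against sham, 0 in SCI_ALA against SCI_Veh and 5363 in SCI_ALA against sham, and those among the 10 genes were 5, 0 and 6, with C3 lost (edgeR adjusted p = 0.0794).

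Some signs turned. Between SCI_ALA and SCI_Veh they did so with the length trend removed for C1qa (-0.023) and Cr1l (0.024), for Cr1l also with RLE factors (0.0052), at least 50 counts (0.019) and DESeq2 (0.0033), and for C4b with the 3 C4 genes summed (-0.11). C1s in SCI_ALA against sham was -0.083 without SCI_ALA 3 and sham 2. With 1 library left out the ranges were -0.34 to 0.27 for C1s in SCI_Veh against sham, -0.02005 to 0.58 for C1s and -1.05 to 0.60 for C4b in SCI_ALA against sham, and in SCI_ALA against SCI_Veh -0.0092 to 0.29 for C1qa, -0.18 to 0.083 for C2, -0.13 to 0.084 for Cr1l, -0.021 to 0.25 for Clu and -0.92 to 0.61 for Csmd1. The cause of these turns was not tested. The lowest count in a library was 77 for C4b and 62 for C3ar1. In SCI_Veh against sham the SE was 0.80 for C4b, whose libraries varied several-fold within groups. It was 0.25 for C3ar1, as for Serping1 with its higher counts.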
